A study of Bos taurus with 2 samples.

Results

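The miR-30 family was followed in small RNA libraries of newborn bovine lung. Members were the rows of the deposited table whose miRNA name, without species prefix, arm and gene copy number, was miR-30a, miR-30b, miR-30c, miR-30d, miR-30e or miR-30f. The rule found 18 rows of the 2271 in the table, 7 under bovine names and 11 under names of other species. The rule used names and no measured value, though it was set with earlier results of these data known.

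One library came from normal lungs and one from collapsed lungs, here called the normal pool and the collapsed pool. Per the series text, total RNA of 4 newborn cows (500 ng per sample) went into each pool, taken from cloned animals for one pool and from normal animals for the other. The labels give only normal or collapsed as the phenotype, so the link of the collapsed lungs to the clones rests on the wording of the series. The labels used here name no breed, exact age or treatment. The study concerned miRNAs in respiratory distress of newborn cloned calves. The spread between cows was lost by pooling, so every difference below compares 2 libraries and has no replicate check.

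MicroRNAs guide Argonaute proteins to mRNAs that pair with their seed, the bases 2 to 8 from the 5′ end, and thereby lower the output of those mRNAs. A miRNA hairpin yields a 5p and a 3p arm, and in the miR-30 family the 5p arms, which share 1 seed, are the usual guide strands. The family is known for high levels in differentiated epithelium and in mature lung. In human cells it restrains SNAI1, a transcription factor that drives epithelial cells to a mesenchymal state, and in the rodent heart miR-30c lowers CTGF, a matrix-promoting growth factor. In mammals the genes lie in neighbouring pairs.

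The 5p sequences below, as deposited, are shown because the seed unites the family and the bases behind it tell its members apart. Capitals mark the seed, and T stands for U.
miR-30a-5p: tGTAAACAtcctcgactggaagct
miR-30e-5p: tGTAAACAtccttgactggaagct
miR-30d-5p: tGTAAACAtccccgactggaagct
miR-30b-5p: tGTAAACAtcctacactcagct
miR-30c-5p: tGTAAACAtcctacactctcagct
miR-30f-5p: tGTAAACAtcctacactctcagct
From miR-30a-5p, miR-30e-5p differed by C13T and miR-30d-5p by T12C, with positions counted from 1 at the 5′ end. miR-30b-5p differed from miR-30c-5p by 2 edits, and from miR-30a-5p by 5. The rows named miR-30c and miR-30f carried the same sequence. The deposited name of the miR-30f row has a suffix read here as a C9T difference from the reference of that name, and the deposited sequence has T there. By its deposited sequence the miR-30f row therefore could not be told apart from miR-30c.

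The 3p sequences of 4 rows are shown because they identify the gene that the 5p arms of miR-30c cannot. All were deposited under human names.
hsa-miR-30a-3p: cTTTCAGTcggatgtttgcagc
hsa-miR-30e-3p: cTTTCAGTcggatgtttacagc
hsa-miR-30c-1-3p: cTGGGAGAgggttgtttact
hsa-miR-30c-2-3p: cTGGGAGAaggctgtttactct
Capitals again mark bases 2 to 8. The 3p arms of miR-30a and miR-30e shared a seed and differed by G18A, and the 3p arms of the 2 miR-30c genes shared another seed and differed by 4 edits. Neither seed is that of the 5p arms.

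The table gave the normal pool 4550911 reads and the collapsed pool 2822876. Levels are given as reads per 1000000 of all reads that the table gives a pool (RPM). A row with 3 reads, taken as the floor, stood at 0.659 RPM in the normal and at 1.06 RPM in the collapsed pool. By its exact 95% interval a count of 0 allows somewhat more, up to 0.811 RPM in the normal and 1.31 RPM in the collapsed pool. Intervals are exact 95% intervals and, like these floors, cover counting error only, since amplified reads without molecular identifiers are not independent molecules. As a check of the tissue, miRNAs of epithelium, multiciliated cells, endothelium, smooth muscle and fibroblasts were all present. The summed markers of smooth muscle and fibroblasts took 20.7% and 20.6% of reads in the normal and collapsed pools, and the endothelial miR-126 took 4.63% and 4.87%. Those of epithelium (6 of 6 listed present) took 0.839% and 0.771%, those of multiciliated cells (5 of 5) 0.797% and 0.275%, and those of leukocytes (3 of 3) 0.300% and 0.238%. Red cell markers (3 of 3) took 0.315% and 0.302%, striated muscle markers (2 of 3, with miR-206 at 0) 0.00606% and 0.00478%, and the liver marker miR-122 0.00345% and 0.00174%. All of these sums but that of miR-126 were lower in the collapsed pool, though that of smooth muscle and fibroblasts hardly so, at a ratio of 0.996. Within it the most abundant rows went both ways. The log2 ratio of the collapsed to the normal pool was -0.12 for miR-143 and -0.58 for miR-145. It was 0.26 for miR-199a, 0.33 for miR-199b and 0.63 for miR-214. The most abundant rows of the epithelial list also went both ways. Their log2 ratios were -0.53 for miR-375, -0.44 for miR-141, -0.14 for miR-200c, -0.09 for miR-200a, 0.008 for miR-200b and 0.04 for miR-429. The part of these cell types in the miR-30 differences was not tested. In such bulk RNA, fewer cells of a type and less miRNA per cell cannot be told apart.

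The miR-30 family was abundant in both libraries, and its 5p arms were lower in the collapsed pool. The 11 rows of the 5p arm summed to 8.11% of reads in the normal pool (95% interval 8.08 to 8.13%) and to 6.47% in the collapsed pool (6.44 to 6.50%), 1.25-fold lower (1.25 to 1.26). The 7 rows of the 3p arm summed to 904 and 856 RPM, a ratio of 0.947 (0.900 to 0.996). The abundance that the family is known for was thus seen. A change with lung maturation could not be examined, since both libraries came from newborn cows and no exact age was named. Grouped by seed, miR-30 had rank 4 among all seeds in the normal pool and rank 4 in the collapsed pool. No row outside the family had this seed at bases 2 to 8.

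Whether the 5p rows shared reads was looked at through numbers of reads that were not whole. In the collapsed pool 7 of the 11 rows held a number of reads that was not whole, and in the normal pool 4 did, yet the 11 rows summed to a whole number within 0.02 reads in both. The same held for the 7 rows of the 3p arm, of which 2 were not whole in the collapsed pool and 0 in the normal pool. The fractions of reads thus added up to whole reads within each arm, so the sums rest less on such a division than the single rows do. A read counted in full on 2 rows would not show in this check, and the 3p arm of the normal pool could not fail it. With each distinct sequence counted once, the log2 ratio of the 5p sum was -0.33, as with all 11 rows.

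miR-30a-5p, which in human cancer cells lowers the autophagy protein BECN1, was the most abundant member. It stood at 42475 RPM in the normal pool (42290 to 42661) and at 32439 RPM in the collapsed pool (32232 to 32646), 1.31-fold lower (1.30 to 1.32). By reads it had rank 4 among all rows in the normal pool and rank 8 in the collapsed pool. miR-30e-5p, which differs from it by 1 base, stood at 13814 RPM and at 12573 RPM, 1.10-fold lower (1.08 to 1.11). Of these near-identical members the more abundant had the wider ratio, and the counting intervals of the ratios did not overlap.

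miR-30d-5p, known from human melanoma cells to lower the glycosylation enzyme GALNT7 together with miR-30b, stood at 11717 RPM in the normal and 9067 RPM in the collapsed pool, 1.29-fold lower (1.27 to 1.31). miR-30b-5p stood at 5134 and 4115 RPM, 1.25-fold lower (1.22 to 1.28). The row miR-30f-5p stood at 5410 and 4240 RPM, 1.28-fold lower (1.25 to 1.30). The row miR-30c-5p stood at 2521 and 2276 RPM, 1.11-fold lower (1.07 to 1.14). Added together, the rows miR-30c-5p and miR-30f-5p, which have 1 sequence, stood at 7931 and 6516 RPM, 1.22-fold lower (1.20 to 1.24).

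The order of the 5p levels was the same in both libraries, from miR-30a through miR-30e, miR-30d, miR-30f and miR-30b to miR-30c. All neighbours in this order were apart by their counting intervals in the normal pool. In the collapsed pool miR-30f-5p (4165 to 4316 RPM) and miR-30b-5p (4040 to 4190 RPM) overlapped. With its 2 rows added, the miR-30c sequence would have rank 4 among the 5p arms in both pools.

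**Figure D1:**
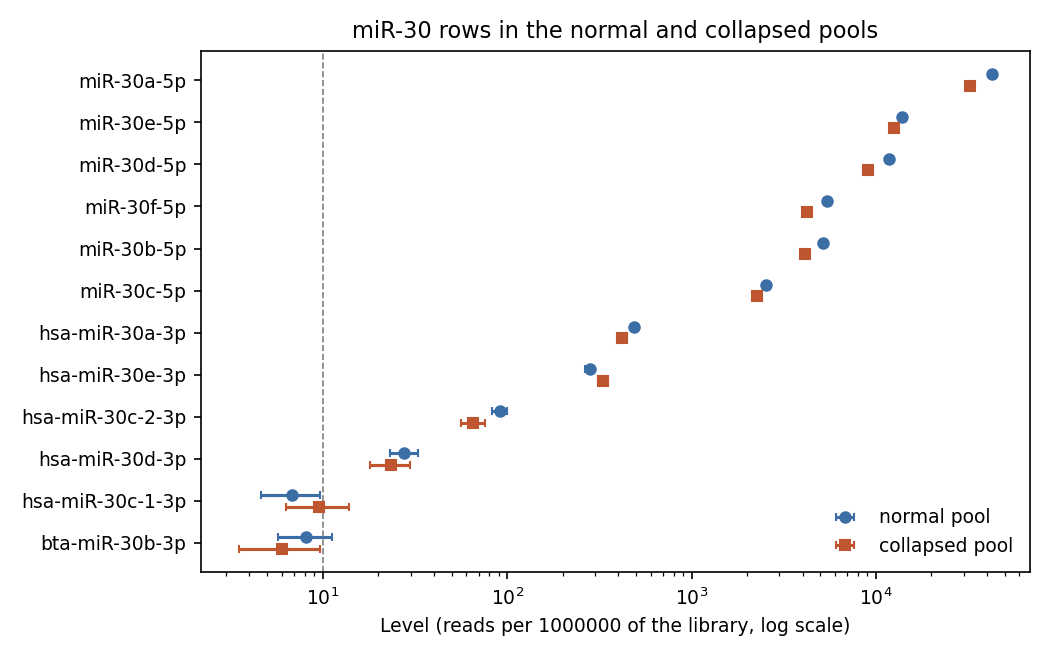
Level of the miR-30 rows with a mean of at least 5 RPM in the normal pool (blue circles) and the collapsed pool (orange squares), on a log axis in RPM. Bars are exact 95% counting intervals, the dashed line is the minimum of 10 RPM, and all 6 abundant 5p rows are lower in the collapsed pool, with miR-30a-5p at 42475 and 32439 RPM.

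Among the 3p arms, miR-30a-3p and miR-30e-3p were the most abundant, and their ratios on totals lay on opposite sides of 1. miR-30a-3p stood at 490 RPM in the normal and 420 RPM in the collapsed pool, a ratio of 0.857 (0.799 to 0.921). miR-30e-3p stood at 281 and 331 RPM, a ratio of 1.18 (1.08 to 1.29), and it was the only measured member that was higher in the collapsed pool. This higher level rests on the scaling. The ratio of miR-30e-3p was 1.06 (0.974 to 1.16) with median-of-ratios size factors and 1.08 (0.993 to 1.18) with the authors' normalized values, intervals that include 1, and 1.09 (1.00 to 1.19) with a trimmed mean of log ratios. The 3p arm of the second miR-30c gene, hsa-miR-30c-2-3p, stood at 91.0 and 65.5 RPM, a ratio of 0.720 (0.602 to 0.859), on 414 and 185 reads. hsa-miR-30d-3p stood at 27.7 and 23.4 RPM on 126 and 66 reads, and its ratio of 0.844 had an interval from 0.617 to 1.15 that includes 1.

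Rows with a mean level of 10 RPM or more over both pools are termed measured, and 10 of the 18 member rows were. A measured row was called when it was at least 2-fold higher or lower and the counting interval of its ratio left out 1. No measured member was called, against 2.87% of the 487 measured rows of the table called lower and 3.49% called higher. At a threshold of 1.5-fold, again no member was called, against 7.19% lower and 12.7% higher in the table. With the interval alone, 8 of the 10 measured members were lower, against 25.3% of measured rows, and 1 was higher, against 35.7%. Counting intervals are narrow for abundant rows, so the share is also given for rows of at least 1000 RPM. Of these 99 rows 45.5% were lower with an interval that left out 1, and all 6 members among them were, the 5p rows named above. The median log2 ratio of the 10 measured members was -0.28, against 0.09 over all 487 measured rows, with members from -0.47 to 0.24. Of the 10 measured members 9 had a ratio below 1, against 41.1% of measured rows.

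**Figure D2:**
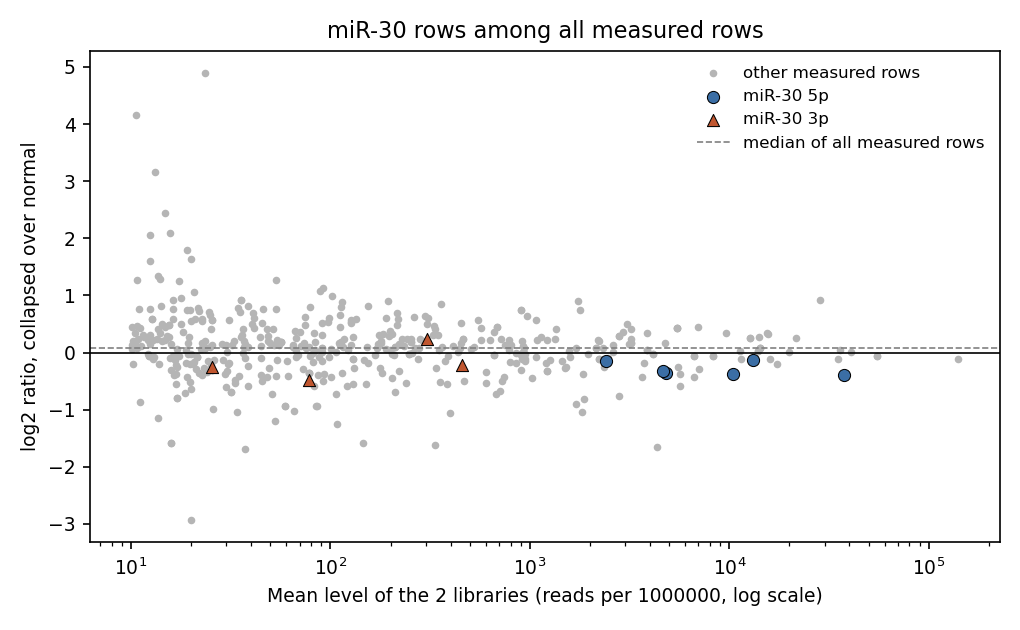
Mean level of the 2 libraries in RPM (log axis) against the log2 ratio of the collapsed to the normal pool, for all 487 measured rows. The 6 measured miR-30 5p rows (blue circles) all lie below 0, from -0.39 to -0.14, and of the 4 measured 3p rows (orange triangles) 1 lies above 0, while the dashed median of all measured rows is at 0.09.

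The 5p arms of neighbouring genes had close ratios, but those of miR-30a, miR-30f, miR-30b and miR-30d were as close across pairs as within them. Only miR-30c-5p and miR-30e-5p stood apart from the other 5p arms. The ratios of the 3p arms of neighbouring genes lay farther apart, but with counting intervals that overlapped within each pair. A difference between those arms was thus not detectable. In the RefSeq gene table of the ARS-UCD2.0 assembly, a different build from that of the deposited table, MIR30A neighbours MIR30F, MIR30B neighbours MIR30D, and MIR30C neighbours MIR30E, with 0 other annotated genes between the members of each pair. MIR30C and MIR30E both lie within NFYC, the gene of a subunit of the transcription factor NF-Y. In human, miR-30c-1 lies beside miR-30e and miR-30c-2 beside miR-30a, so the 3p row named for human miR-30c-2 is set here with MIR30F, and that named for human miR-30c-1 with MIR30C.

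For the genes MIR30A and MIR30F the log2 ratios were -0.39 for miR-30a-5p (-0.40 to -0.38), -0.35 for the row miR-30f-5p (-0.38 to -0.32), -0.22 for miR-30a-3p and -0.47 for hsa-miR-30c-2-3p (-0.73 to -0.22). All 4 rows were lower in the collapsed pool. For MIR30B and MIR30D they were -0.32 for miR-30b-5p (-0.35 to -0.29) and -0.37 for miR-30d-5p (-0.39 to -0.35). Their 3p arms were at -0.24 for hsa-miR-30d-3p and -0.43 for bta-miR-30b-3p, the latter not measured, both with intervals that include 0. For MIR30C and MIR30E the log2 ratios were nearest 0, at -0.15 for the row miR-30c-5p (-0.19 to -0.10) and -0.14 for miR-30e-5p (-0.15 to -0.12). Their 3p arms were above 0, at 0.24 for miR-30e-3p (0.12 to 0.36) and 0.49 for hsa-miR-30c-1-3p (-0.31 to 1.28), the latter on 31 and 27 reads and not measured.

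Added over both arms, the rows of MIR30A and MIR30F had a ratio of 0.767 (0.761 to 0.772). Those of MIR30B and MIR30D had a ratio of 0.782 (0.773 to 0.792). Those of MIR30C and MIR30E had a ratio of 0.914 (0.903 to 0.925). The interval of the MIR30C and MIR30E pair did not overlap that of either other pair, and those of the MIR30A and MIR30B pairs did not overlap each other by a narrow margin. The rows miR-30c-5p and miR-30f-5p, with 1 sequence, had ratios of 0.903 (0.875 to 0.931) and 0.784 (0.767 to 0.801). Among the 5p arms, miR-30c-5p was nearest in ratio to its neighbour miR-30e-5p, at 0.910. The row miR-30f-5p was nearer to miR-30d-5p, at 0.774, and miR-30b-5p, at 0.801, than to its neighbour miR-30a-5p, at 0.764. No source used here says how the authors divided reads of 1 sequence between the names miR-30c and miR-30f, so the difference between these 2 rows is uncertain. The difference between miR-30e-5p and miR-30a-5p does not rest on that division. Yet miR-30e-5p in the normal pool and miR-30a-5p in the collapsed pool also held numbers of reads that were not whole. Their split is thus less certain than their sum.

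**Figure D3:**
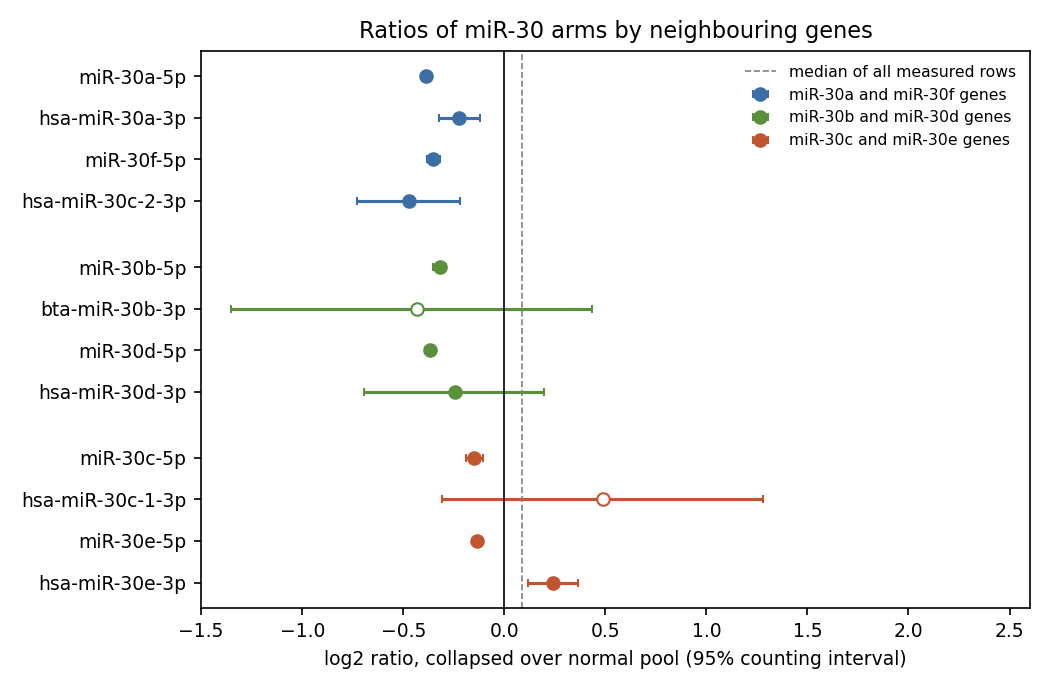
log2 ratio of the collapsed to the normal pool for the 5p and 3p arms of the miR-30 genes, grouped by neighbouring genes, with 95% counting intervals and open circles for rows under 10 RPM. The 5p arms of the MIR30A and MIR30F pair and of the MIR30B and MIR30D pair lie between -0.39 and -0.32, and those of the MIR30C and MIR30E pair at -0.15 and -0.14.

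The make-up of the family's 5p reads does not depend on how the libraries are scaled. miR-30a-5p made up 52.4% of the 5p reads in the normal pool (52.2 to 52.6%) and 50.1% in the collapsed pool (49.9 to 50.4%). miR-30e-5p made up 17.0% (16.9 to 17.2%) and 19.4% (19.2 to 19.6%). miR-30d-5p made up 14.5% (14.3 to 14.6%) and 14.0% (13.9 to 14.2%). The share of miR-30e was thus higher in the collapsed pool and those of miR-30a and miR-30d lower, with intervals that did not overlap. These intervals do not cover the division of reads between rows. The reads of miR-30e-5p in the normal pool and of miR-30a-5p and miR-30d-5p in the collapsed pool were not whole.

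miR-30f-5p made up 6.67% (6.59 to 6.75%) and 6.55% (6.44 to 6.67%) of the 5p reads, and miR-30b-5p 6.33% (6.25 to 6.41%) and 6.36% (6.25 to 6.47%), both with overlapping intervals. The row miR-30c-5p made up 3.11% (3.05 to 3.17%) and 3.52% (3.43 to 3.6%), intervals that did not overlap. Of the difference of 16362 RPM between the 5p sums, miR-30a-5p accounted for 61.3%, miR-30d-5p for 16.2%, miR-30e-5p for 7.59%, miR-30f-5p for 7.15%, miR-30b-5p for 6.23% and miR-30c-5p for 1.5%. Without miR-30a the 5p sum stood at 38599 and 32274 RPM, 1.20-fold lower (1.19 to 1.21), so the lower sum did not rest on miR-30a alone.

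**Figure D4:**
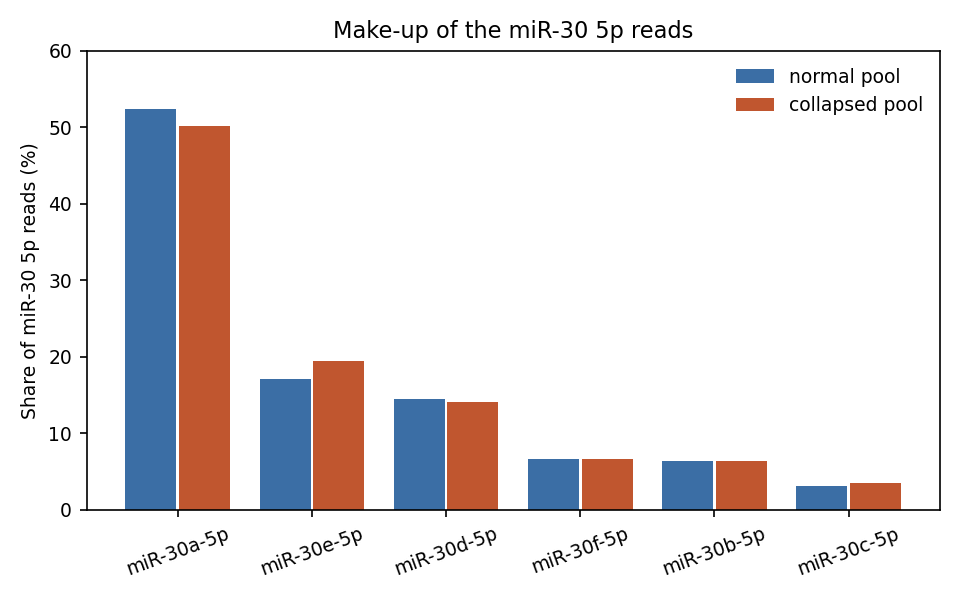
Share of the miR-30 5p reads held by each of the 6 abundant 5p rows, in percent, in the normal pool (blue) and the collapsed pool (orange). miR-30a-5p holds 52.4% and 50.1%, and miR-30e-5p 17.0% and 19.4%.

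The balance of the arms, which also does not depend on scaling, leaned further to the 3p arm in the collapsed pool for miR-30e and miR-30a. Of the reads of both miR-30e arms, the 3p arm held 1.99% in the normal pool (1.88 to 2.10%) and 2.57% in the collapsed pool (2.41 to 2.74%). For miR-30a it held 1.14% (1.09 to 1.19%) and 1.28% (1.21 to 1.35%). The intervals of the libraries did not overlap for either precursor. The 3p arms of both differ by 1 base, and in the collapsed pool neither held a whole number of reads while the 7 rows of the 3p arm together did, so their split is less certain than their sum.

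For miR-30d the 3p arm held 0.236% (0.196 to 0.281%) and 0.257% (0.199 to 0.327%), and for miR-30b 0.158% (0.111 to 0.218%) and 0.146% (0.0852 to 0.234%). With the row miR-30f-5p, hsa-miR-30c-2-3p held 1.65% (1.5 to 1.82%) and 1.52% (1.31 to 1.76%). With the row miR-30c-5p, hsa-miR-30c-1-3p held 0.269% (0.183 to 0.382%) and 0.418% (0.276 to 0.608%). In these 4 cases the intervals overlapped, so a difference was not detectable at this depth. Within a library the share of the 3p arm differed over 10-fold between precursors, being highest for miR-30e and lowest for miR-30b.

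**Figure D5:**
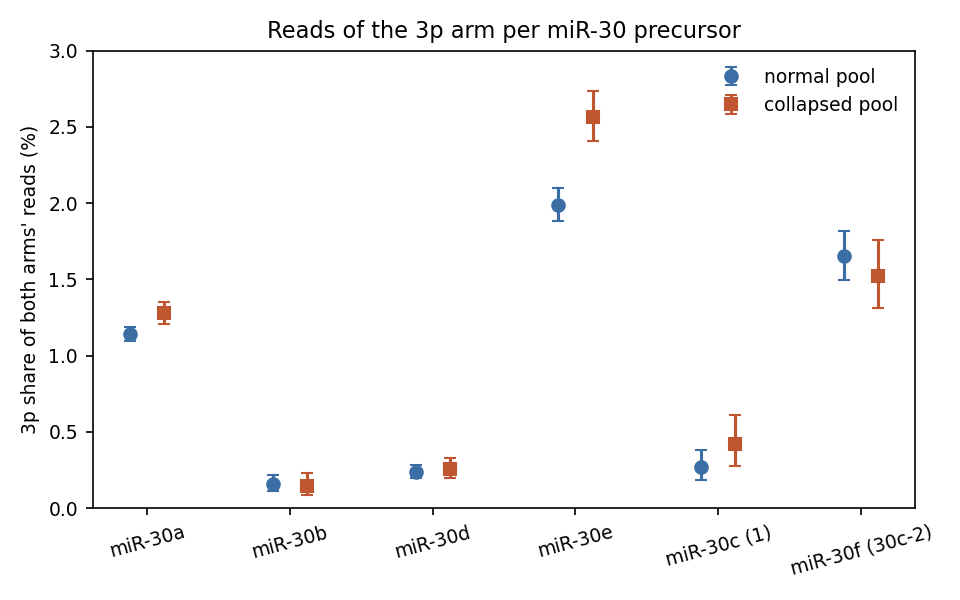
Share of the 3p arm in the reads of both arms of each miR-30 precursor, in percent, with exact 95% counting intervals, in the normal pool (blue circles) and the collapsed pool (orange squares). "miR-30c (1)" sets the row miR-30c-5p with hsa-miR-30c-1-3p, and "miR-30f (30c-2)" sets the row miR-30f-5p with hsa-miR-30c-2-3p, and the intervals of miR-30e, at 1.99% and 2.57%, lie apart.

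The 8 member rows that were not measured held few reads and give no direction. bta-miR-30b-3p had 37 reads in normal and 17 in collapsed lungs, and hsa-miR-30c-1-3p had 31 and 27. The row mmu-miR-30f, with 11 and 4 reads, had the same seed as the bovine 5p arms. The name rno-miR-30a-5p stood on 2 rows with equal values, and its sequence began 3 bases before the usual start, so that its bases 2 to 8 were not the family seed. The rows oan-miR-30f, mdo-miR-30c-1-3p and ggo-miR-30c held at most 3 reads in either library. The 6 abundant 5p rows held 98.9% of the family's reads in the normal pool and 98.7% in the collapsed pool.

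Against the miR-26 and miR-29 families, named with miR-30 as miRNAs of maturing lung, miR-30 lay in between. miR-26, the most abundant of the 3, summed over 6 rows to 12.9% of reads in the normal and 12.3% in the collapsed pool, a ratio of 0.954 (0.950 to 0.958), with 0 of 5 measured rows called and a median log2 ratio of -0.06. miR-29, whose targets include collagens, summed over 8 rows to 2490 and 1325 RPM, a ratio of 0.532 (0.513 to 0.552), with 0 of 4 called at 2-fold and a median of -0.94. At 1.5-fold, 4 of 4 measured miR-29 rows and 1 of 5 miR-26 rows were called lower, against 0 of 10 for miR-30 and 7.19% of measured rows. Among these rows miR-29b and miR-26a were repeated with equal values, and the sums count each row. Whether such rows divide or repeat reads was not tested. In the normal pool the rank of miR-26 above miR-30 rests on counting both miR-26a rows. Each stood there at 56041 RPM and miR-26b at 16546 RPM, against 81981 RPM for all miR-30 rows. The miR-30 5p sum, at 0.798 (0.794 to 0.803), overlapped neither other family by its counting interval. Over seeds with a mean of at least 10000 RPM, which numbered 17 and were looked at after the values were seen, 6 had ratios below 1, and none of the other seeds had a lower log2 ratio than that of miR-30, at -0.33. The median log2 ratio of the 17 was 0.03.

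Of 89 rows under bovine names outside the family with at least 1000 RPM, 40 had a log2 ratio below 0 and 10 one below that of the miR-30 5p sum. Nearest to it, by the absolute difference of log2 ratios over the 2 libraries, were miR-320a, on 2 rows with equal values at 1346 and 1079 RPM each (log2 ratio -0.32), and miR-100, at 7737 and 6314 RPM (-0.29). With 2 libraries this likeness is a single number and says nothing of a shared pattern.

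None of the 18 member rows was among the 78 rows that the authors' deposited table set apart as different. The authors' normalized reads followed the row's own reads for 17 member rows. The exception was the row miR-30c-5p, to which the authors' deposited table gave the normalized reads of the miR-30f row, 20267 and 14538, in place of the 9446 and 7805 that its own reads give with the authors' factors. The authors' deposited table therefore lists the same log2 fold change of -0.48 for both names, whereas the reads of the row miR-30c-5p give -0.28 on the authors' scale. On that scale all log2 ratios are 0.13 lower than on totals.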

How the data were processed

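Small RNA of 2 pools was sequenced once each. Trizol-extracted RNA with a RIN above 7.0, about 1 µg, entered a TruSeq small RNA preparation, per the labels' protocols. The submitters' processing notes name the build bosTau8. No source used here gives the aligner or the miRNA database release. The authors deposited, per the file headers, raw read counts per row, which are not all whole, and normalized reads, a signal equal to the reads over 1.21 in the normal and 0.823 in the collapsed pool. The deposited fold change (a ratio of normalized reads) and its log2 value are quoted as the authors'. The deposited p-values compare 2 libraries and were not used.

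Reads were scaled to 1000000 of each library's table total. The 2 emptied lines were not analysed here. Ratios have exact conditional binomial 95% intervals and shares Clopper-Pearson intervals, on rounded reads. Where a library had 0 reads, 0.5 was added to both. With 1 library per group no count model or test was used. The interval and call code was tested on simulated data. All member rows were named. Outside the family the rule named the 3 rows nearest in ratio, and rows sharing the seed, of which there were none. The members, lists and comparison families were chosen with earlier results of these data known. Python 3.11.15, numpy 2.4.6, scipy 1.17.1, pandas 2.3.3 and matplotlib 3.10.9 were used. Alternatives were other scalings (the authors' factors on each row's own reads being added after seeing the data), minimums, thresholds and ways of counting rows.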

Additional observations from a re-analysis of the deposited data

How the results depend on the processing

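No paired analysis was possible because each group is a single pool. Scaling decided the size of the differences. The log2 ratio of the summed 5p rows was -0.33 on totals, -0.48 when median-of-ratios factors were used, -0.44 with a trimmed mean, -0.46 with the authors' normalized values, -0.34 with the most abundant rows left out of the totals and -0.26 without miR-30a. Median-of-ratios factors, the trimmed mean and the authors' normalized values, in this order, gave -0.23, -0.20 and -0.21 for the 3p sum (-0.08 on totals) and -0.44, -0.40 and -0.46 for the members' median. The authors' values also carry the miR-30f reads on the row miR-30c-5p. The authors' factors on each row's own reads, a setting chosen after seeing the data, gave -0.45 for the 5p sum, -0.21 for the 3p sum and -0.41 for the median. The median of all measured rows moved from 0.09 on totals to -0.07 with median-of-ratios factors. The 3p sum was -0.43 with bovine names only, when it rests on the scarce miR-30b-3p alone. Each of these 4 scalings (the deposited normalized values and the authors' factors counted apart) put 1 member, hsa-miR-30c-2-3p, past 1.5-fold lower, where totals put 0. The number of members higher with an interval that left out 1 was 0, in place of 1 (miR-30e-3p), with median-of-ratios factors, with the authors' normalized values or factors, and with bovine names only, where that row is left out. The gain of miR-30e among 5p reads was 2.39 percentage points and 3.17 without miR-30a. Over the other settings run, the 2-fold calls stayed at 0 and no log2 ratio of the 10 measured members changed sign where it was recomputed, though scaling moved ratios down only. Depth limits the 3p arms of miR-30b, miR-30c-1 and miR-30d.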

Other observations

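Over 36 precursors with both arms measured and named in the table, the arms' log2 ratios differed by a median of 0.22 in size, and the 3p arm had the higher ratio in 23. The arms of miR-30e differed by 0.38, with 9 precursors farther apart, those of miR-30a by 0.17, with 21 farther apart, and those of miR-30d by 0.13, with 27 farther apart. Among rows whose name gives an arm, the most abundant of each arm was taken, under any species name. Rows named without an arm were left out except in the miR-30 family, so some other precursors stand on scarce rows. For miR-27b the 3p row taken had a mean of 12.8 RPM, while the row bta-miR-27b had 35887 RPM. This comparison was added after the values were seen.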
